A study of Mus musculus with 5 samples.

Results

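Peaks of acetylated histones were examined at 10 genes of 3 transcription factor families in CD8+ T cells: the RUNX genes Runx1, Runx2 and Runx3 with their partner Cbfb, the ETS genes Ets1, Fli1, Elf1 and Gabpa, and the Ikaros genes Ikzf1 and Ikzf3. They are 10 of 21853 protein-coding genes of the annotation, and were chosen by name. A peak belonged to a gene when it overlapped the gene body or the 30 kb on either side of it, and this stretch is called the locus. The study compared memory-type (TM) cells of WT mice with those of TPdh-/- mice. In TPdh-/- mice a floxed Pdha1 gene, which encodes a subunit of the pyruvate dehydrogenase complex, is deleted by a Cre recombinase under the Cd4 promoter. There were 2 WT and 3 TPdh-/- libraries, each with its own list of broad peaks, which is fewer per group than the study describes for this assay. Per the study's methods, OT-I cells, whose T cell receptor recognizes an ovalbumin peptide, were activated with that peptide and then cultured with IL-15, so that both groups shared activation and cytokine, and the mice were young adults of both sexes. The Cd4 promoter is active in thymocytes that later become CD8+ cells, so Cre acts before the culture begins. The lists hold peaks and not expression, and the deletion itself cannot be checked in them. Nothing in the labels says that libraries came from separate animals, so differences were read against a spread that may be technical.

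RUNX proteins bind DNA through the runt domain and need the non-DNA-binding partner encoded by Cbfb for stable binding. Runx3 and Runx1 silence Cd4 and support the cytotoxic programme in CD8+ T cells, while Runx2 is best known for bone formation. ETS proteins share a winged helix domain that reads a GGAA core, and Ikaros proteins are zinc finger factors of lymphocytes that also read a GGAA core and recruit chromatin remodelling and deacetylase complexes. Acetylation of histones marks active promoters and enhancers. The antibody was raised against acetylated lysine of histones. The sample labels name lysine 18 as its target.

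The 5' ends of the 3 RUNX genes are shown first because the same letters stand there in all 3 while peaks do not. The sequences are 300 bases long, 250 before and 50 after a RefSeq start site on GRCm38.p6, written 5' to 3' on the strand of the gene. Capitals mark 6-base matches to TGTGGT (RUNX), CCGGAA (ETS) or TGGGAA (Ikaros) on either strand, none of which overlapped another. The windows are chr16:92826025-92826324 (minus strand) for Runx1, chr17:44814578-44814877 (minus strand) for Runx2 and chr4:135120395-135120694 (plus strand) for Runx3.
Runx1 distal promoter: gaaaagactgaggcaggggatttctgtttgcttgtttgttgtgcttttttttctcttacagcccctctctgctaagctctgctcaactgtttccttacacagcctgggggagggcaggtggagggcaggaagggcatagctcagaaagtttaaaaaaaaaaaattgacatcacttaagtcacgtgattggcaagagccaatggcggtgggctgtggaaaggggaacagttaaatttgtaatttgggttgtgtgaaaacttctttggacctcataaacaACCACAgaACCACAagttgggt
Runx2 distal promoter: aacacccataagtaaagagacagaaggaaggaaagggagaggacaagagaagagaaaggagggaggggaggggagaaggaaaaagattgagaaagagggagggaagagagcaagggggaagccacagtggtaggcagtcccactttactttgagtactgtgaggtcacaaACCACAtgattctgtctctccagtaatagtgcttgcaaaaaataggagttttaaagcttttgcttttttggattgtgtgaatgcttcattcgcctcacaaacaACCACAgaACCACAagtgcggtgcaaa
Runx3 distal promoter: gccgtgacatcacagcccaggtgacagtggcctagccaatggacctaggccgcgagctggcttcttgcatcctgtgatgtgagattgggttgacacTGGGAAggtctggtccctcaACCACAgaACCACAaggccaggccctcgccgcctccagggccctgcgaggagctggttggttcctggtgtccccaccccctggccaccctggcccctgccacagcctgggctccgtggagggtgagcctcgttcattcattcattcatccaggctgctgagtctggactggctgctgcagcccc
All 3 windows held a pair of RUNX matches with starts 8 bp apart, inside a shared run of 18 bases, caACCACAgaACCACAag. In each gene TGTGGT reads on the strand opposite to the printed one. The pair began 28 bp after the RefSeq start of Runx1, 23 bp after that of Runx2 and 134 bp before that of Runx3. Such a pair was present in 7 of 32851 promoter windows of the RefSeq table (0.0213%), and a single RUNX match in 16.8%. The pair was noticed after the sequences had been read. A peak overlapped the Runx1 window in all 5 libraries and the Runx2 and Runx3 windows in none.

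Of the 10 members, 7 had an entry in the promoter table, with 11 windows in all, and Ets1, Fli1 and Ikzf3 had none. RUNX matches occurred in 3 of the 11 windows, ETS matches in 2 and an Ikaros match in 1. Over all windows of the table the shares were 16.8%, 14.9% and 25.6%. The Gabpa window (chr16:84834874-84835173, plus strand) is shown because its peak was the strongest own-promoter peak of the members in 4 of 5 libraries, and the Runx1 proximal window (chr16:92697280-92697579, minus strand) because peaks lay at that promoter in WT libraries only.
Gabpa promoter: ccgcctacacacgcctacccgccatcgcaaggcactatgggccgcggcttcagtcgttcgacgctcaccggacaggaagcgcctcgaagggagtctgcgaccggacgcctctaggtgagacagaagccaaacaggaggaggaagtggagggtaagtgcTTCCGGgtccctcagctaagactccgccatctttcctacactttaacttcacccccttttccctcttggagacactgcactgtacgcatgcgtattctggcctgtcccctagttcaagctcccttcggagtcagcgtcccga
Runx1 proximal promoter: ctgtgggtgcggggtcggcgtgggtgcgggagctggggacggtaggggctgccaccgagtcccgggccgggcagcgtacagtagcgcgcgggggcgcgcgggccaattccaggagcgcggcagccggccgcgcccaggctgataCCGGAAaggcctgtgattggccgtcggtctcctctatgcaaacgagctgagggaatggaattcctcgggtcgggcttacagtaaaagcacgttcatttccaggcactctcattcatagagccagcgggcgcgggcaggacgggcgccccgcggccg
Each of these 2 windows held a single ETS match, 92 bp before the start site in Gabpa and 106 bp before it in Runx1. A peak overlapped the Gabpa window in all 5 libraries and the Runx1 proximal window in WT replicate 1 only. The WT replicate 2 peak at that Runx1 promoter lay outside the printed bases. A match is a run of letters and no measured binding site.

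The largest peak list was that of WT replicate 1 with 15962 peaks, and WT replicate 2 had 8859. TPdh-/- replicates 1, 2 and 3 had 4920, 5419 and 9418 peaks, so that the list of TPdh-/- replicate 3 was longer than that of WT replicate 2. Among markers of CD8+ T cells, 9, 6, 3, 4 and 7 of 10 had a promoter peak, in the order WT replicates 1 and 2 and TPdh-/- replicates 1, 2 and 3. Over all protein-coding genes the shares with a promoter peak were 40.9%, 23.7%, 14.7%, 15.9% and 26.8%. Cd8b1 and Lck had one in all 5 libraries, Cd8a in 1 and Cd2 in none. Of the CD4 T cell markers Cd4 and Zbtb7b, 2, 1, 0, 0 and 0 had one in the same order. None of 5 myeloid, 1 natural killer cell and 2 stromal markers had a promoter peak in any library. The part of other cells in the results was not tested.

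WT lists held more peaks at the 10 loci than TPdh-/- lists on average, in the proportion in which the whole lists differed. There were 44 peaks in WT replicate 1 and 25 in WT replicate 2, against 15, 15 and 28 in TPdh-/- replicates 1, 2 and 3. The group means were 34.5 ± 13.4 (SD, n = 2) and 19.3 ± 7.51 (SD, n = 3). The means of the log2 peak numbers differed by 0.84 at the loci and by 0.91 for the whole lists. The difference at the loci was 0.44 without WT replicate 1 and 1.25 without WT replicate 2. The groups overlapped, since TPdh-/- replicate 3 had more peaks at the loci than WT replicate 2. As a share of each list, the loci held 0.276% and 0.282% of WT peaks and 0.305%, 0.277% and 0.297% of TPdh-/- peaks. Peaks covered 66.4 and 27.7 kb of the loci in WT and 13.1, 13.7 and 32.3 kb in TPdh-/- libraries, a log2 difference of 1.25 that was 0.62 without WT replicate 1 and 1.89 without WT replicate 2. When each list was cut to its strongest 4920 peaks, the length of the shortest list, the loci held 14 and 10 peaks in WT. They held 15, 14 and 10 in TPdh-/- libraries, so that the groups overlapped and the WT mean was no longer the higher. List length moved with genotype and with these counts, and its part in them cannot be told apart from that of the genotype without read numbers.

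**Figure D1:**
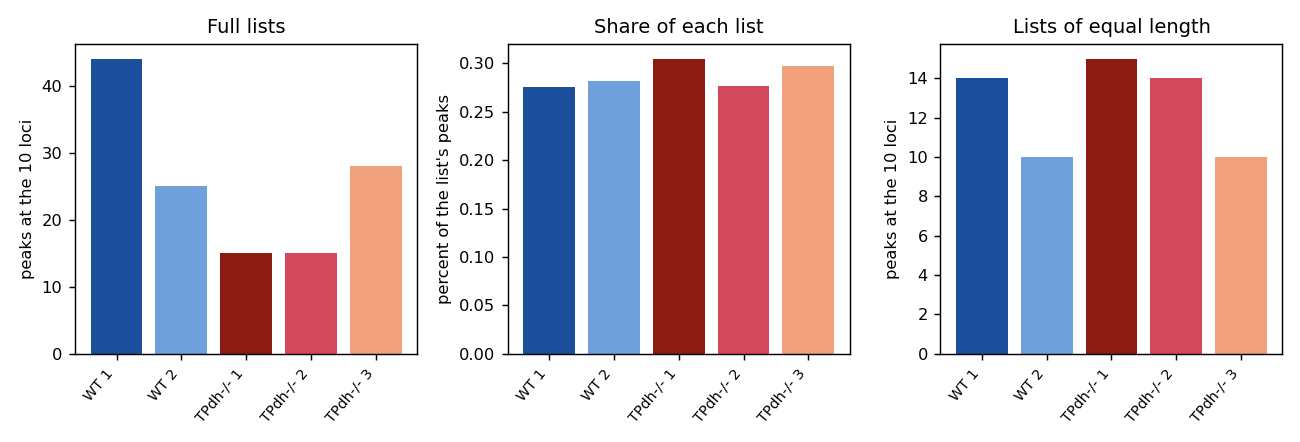
Bars give, for each library, the number of peaks at the 10 loci in the full lists (left), the same as percent of all peaks of the list (middle), and the number when every list is cut to its strongest 4920 peaks (right). Full lists range from 15 to 44 peaks at the loci, shares from 0.276% to 0.305%, and lists of equal length from 10 to 15.

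The loci were more densely covered with peaks than the average gene, in every library. They carried 24.6 and 14.0 peaks per Mb in WT and 8.38, 8.38 and 15.6 in TPdh-/- libraries, against 13.4, 7.24, 4.12, 4.39 and 7.93 over the loci of all protein-coding genes. The members are long genes, with a median body of 94.6 kb against 17.4 kb over all genes. Among the 7326 genes whose bodies are between 28.9 and 319 kb long, the range of the members, the density was 12.0, 6.34, 3.51, 3.83 and 6.99 peaks per Mb, a comparison that was added after the data had been seen. A peak anywhere in the locus was present in all 5 libraries for 7 of 10 members, against 26.2% of all genes. Most genes are shorter than the members, and this share was not computed for genes of the members' lengths. The exceptions were Runx2 and Ets1, without a peak in TPdh-/- replicate 2, and Cbfb, without a peak in TPdh-/- replicate 1.

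A larger share of the peaks lay inside gene bodies at the members than at the 7326 genes in their range of lengths, and a smaller share at own promoters. Those genes were not matched to the members' lengths within that range, so the part of gene length was not tested. A promoter here is the stretch within 3000 bp of a start site of a protein-coding transcript. Gene bodies outside promoters held 47.7% and 40.0% of the members' peaks in WT and 33.3%, 40.0% and 39.3% in TPdh-/- libraries. For genes of the members' lengths the shares were 24.3%, 22.3%, 19.4%, 19.2% and 20.96%. Own promoters held 22.7% and 24.0% of the members' peaks in WT and 26.7%, 26.7% and 25.0% in TPdh-/- libraries, against 31.2% to 37.5% for genes of these lengths.

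**Figure D2:**
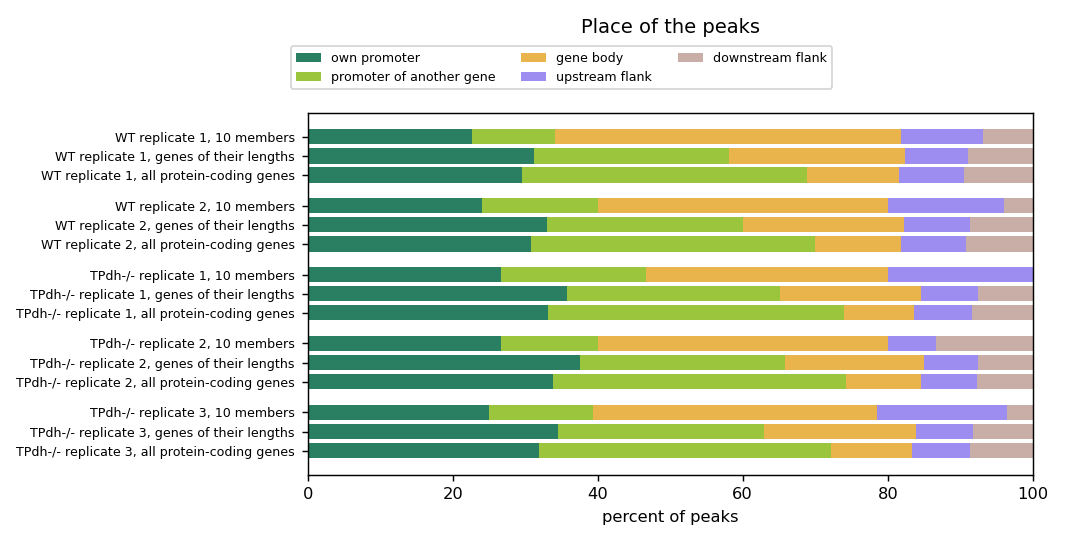
Stacked bars give the percent of peaks in each place class, for each library and for the 10 members, for genes of the members' lengths and for all protein-coding genes. The gene body takes 33.3% to 47.7% of the members' peaks and 19.2% to 24.3% of those of genes in the same range of lengths.

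An own-promoter peak was found for 8 and 5 of 10 members in WT replicates 1 and 2, where 40.9% and 23.7% of all protein-coding genes had one. In TPdh-/- replicates 1, 2 and 3 it was found for 4, 4 and 6 members, against 14.7%, 15.9% and 26.8% of all genes. Runx1, Fli1 and Gabpa had one in all 5 libraries (3 of 10, against 10.4% of all genes). Among genes of the members' lengths the shares were 49.0% and 28.5% in WT and 17.6%, 20.1% and 32.9% in TPdh-/- libraries. In all 5 libraries the share of those genes was 12.4%. The difference in group means, 1.83 members, was 0.333 without WT replicate 1 and 3.33 without WT replicate 2. No member had one in both WT libraries and in no TPdh-/- library, a pattern of 2.11% of all genes. Runx3 and Ikzf3 had none in any library, although both had other peaks in all 5.

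By fold enrichment, the peaks at the loci were modest. The deposited fold of a peak is its mean signal over the background that MACS2 estimated. The median fold at the members was 2.13 and 2.29 in WT and 2.45, 2.28 and 2.16 in TPdh-/- libraries, below the medians of the whole lists (2.40, 2.54, 2.65, 2.58 and 2.48). Ranked by −log10 q within its list, with 100 as the strongest percentile, the median peak at the loci stood at 42.9 and 41.2 in WT and at 51.3, 46.8 and 32.5 in TPdh-/- libraries. A longer list adds weak peaks below a shared one and so raises its percentile, and the WT lists were longer on average, so percentiles were not read as differences between the groups. The share of all regions whose percentiles lie apart between the groups is not given here. The best rank was 264 and 359 in WT and 516, 258 and 485 in TPdh-/- libraries. The strongest peak was the one at Gabpa in WT replicate 2 and TPdh-/- replicates 1 and 2, that at the Supt3 promoter inside Runx2 in WT replicate 1, and that at the Sugt1 promoter beside Elf1 in TPdh-/- replicate 3. The median width in bp at the loci, 1281, 1030, 835, 829 and 960 in the order WT replicates 1 and 2 and TPdh-/- replicates 1, 2 and 3, stood beside 1150, 987, 855, 896 and 1026 for the whole lists.

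**Figure D3:**
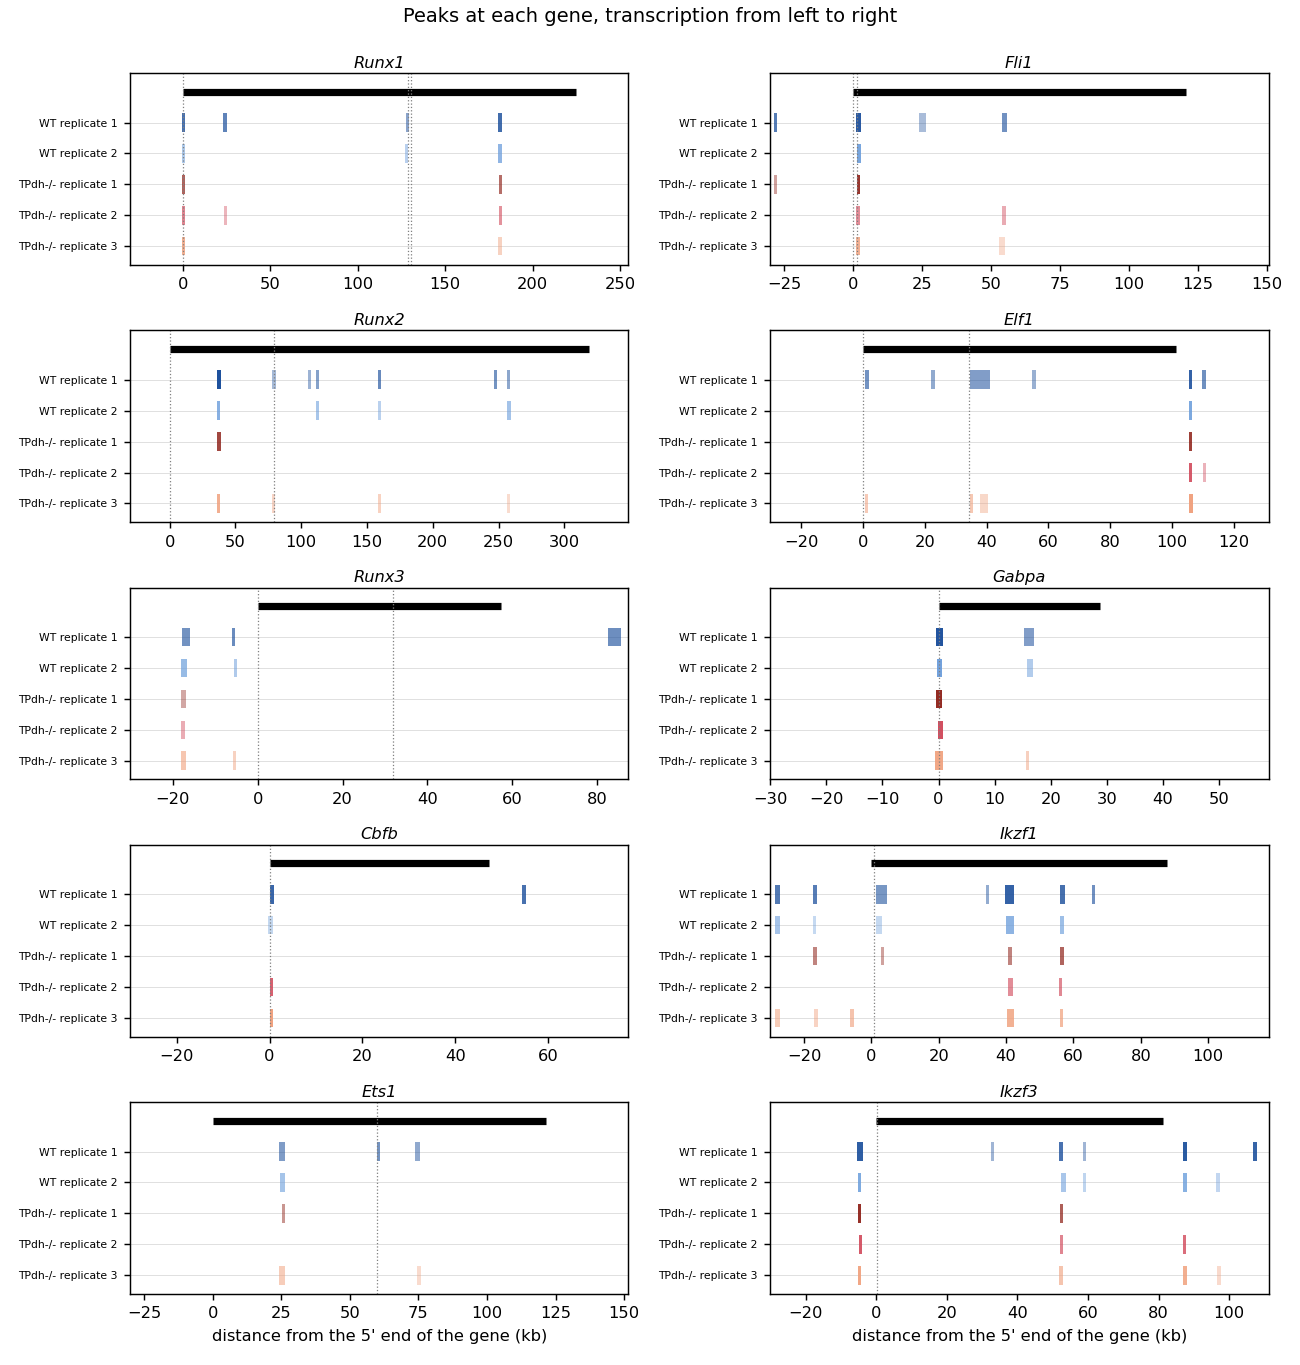
Each panel shows a gene (black bar) with 30 kb on either side, drawn from left to right in the direction of transcription, with distance from the 5' end of the gene in kb. Boxes are peaks of the 5 libraries, darker for a higher percentile by −log10 q and widened to a visible minimum, and dotted lines are start sites of protein-coding transcripts. Boxes stand at the leftmost dotted line of Runx1 and at that of Gabpa in all 5 libraries, within 3000 bp of those of Fli1 in all 5, and within 3000 bp of those of Runx3 and Ikzf3 in none.

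Runx1 lies on chromosome 16 from 92601466 to 92826149 (minus strand), and its peaks lay at both promoters and within the body. It had 4 and 3 peaks in WT and 2, 3 and 2 in TPdh-/- libraries, which covered 5.56 and 3.43 kb in WT and 2.11, 3.00 and 2.74 kb in TPdh-/- libraries. The WT values lay above the TPdh-/- values in covered length but not in number. The distal promoter peak (chr16:92824997-92826594) was present in all 5 libraries, with a fold of 2.39 and 2.23 in WT and 2.52, 2.46 and 2.58 in TPdh-/- libraries. Its percentiles were 70.6 and 31.9 in WT and 52.4, 49.7 and 73.6 in TPdh-/- libraries, and did not separate the groups. At the proximal promoter (chr16:92697255-92698728) both WT libraries had a peak, at folds of 2.43 and 2.53 and percentiles of 25.1 and 20.7, and no TPdh-/- library had one. A peak at chr16:92644076-92645647, 50.6 kb downstream of the nearest start site and over an annotated exon, was again shared by all 5. Its percentile was 74.0 and 65.2 in WT and 44.8, 38.2 and 18.5 in TPdh-/- libraries. Its rank, 4159 and 3080 against 2718, 3352 and 7673, overlapped between the groups. The fold of that peak, 2.15 and 2.39 in WT and 2.42, 2.21 and 1.92 in TPdh-/- libraries, overlapped between the groups. The middle 300 bases of the stretch that all 5 peaks share are shown as the body element of Runx1 common to all libraries (chr16:92644560-92644859, plus strand), where 1 Ikaros match starts at base 156.
Runx1 region 1 core: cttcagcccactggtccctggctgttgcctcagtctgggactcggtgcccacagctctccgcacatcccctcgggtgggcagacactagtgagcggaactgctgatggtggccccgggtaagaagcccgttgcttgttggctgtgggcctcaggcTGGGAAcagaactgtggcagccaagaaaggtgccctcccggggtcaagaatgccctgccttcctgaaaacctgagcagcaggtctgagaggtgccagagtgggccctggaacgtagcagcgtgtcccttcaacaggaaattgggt
The remaining region, in an intron 23.8 kb from the distal start (chr16:92801290-92802590), had a peak in WT replicate 1 and TPdh-/- replicate 2.

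Runx2 lies on chromosome 17 from 44495987 to 44814797 (minus strand) and had peaks mainly in its introns. It had 7 and 4 peaks in WT and 1, 0 and 4 in TPdh-/- libraries, covering 8.71 and 2.49 kb in WT and 0.568, 0 and 3.96 kb in TPdh-/- libraries. TPdh-/- replicate 3 lay among the WT libraries. The distal promoter had no peak in any library. The proximal promoter (chr17:44734799-44736683) had one in WT replicate 1, at the 6.07 percentile, and in TPdh-/- replicate 3, at the 13.3 percentile. The strongest peak of the locus lay inside Runx2 but at the promoter of Supt3 (chr17:44776950-44777973), a gene for a subunit of a histone acetyltransferase complex. It was present in 4 libraries, with a fold of 3.97 and 3.01 in WT and of 3.02 and 3.05 in TPdh-/- replicates 1 and 3, and ranked 264 of 15962 in WT replicate 1. An intron peak 32.0 kb from the nearest start (chr17:44702167-44703164) was found in both WT libraries and in no TPdh-/- library, at percentiles of 27.8 and 38.4.

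Runx3, the RUNX gene most closely tied to CD8+ T cells, lies on chromosome 4 from 135120652 to 135177990 (plus strand) and had peaks on its flanks alone. There were 3 and 2 in WT and 1, 1 and 2 in TPdh-/- libraries, covering 5.59 and 2.26 kb in WT and 1.23, 0.695 and 1.86 kb in TPdh-/- libraries. The WT values lay above all TPdh-/- values in covered length. Neither the distal nor the proximal promoter had a peak in any library. A region at −17.1 kb from the distal start, upstream of the gene (chr4:135102511-135104690) had a peak in all 5, of low fold: 1.60 and 1.78 in WT and 1.75, 1.72 and 1.72 in TPdh-/- libraries. Its percentile was 41.3 and 56.3 in WT and 5.26, 16.3 and 38.4 in TPdh-/- libraries. Its rank, 9370 and 3870 against 4662, 4535 and 5800, overlapped between the groups. Another region at −5.4 kb (chr4:135114625-135115896) had a peak in WT replicates 1 and 2 and TPdh-/- replicate 3. The middle of the shared upstream region is shown as the only stretch at Runx3 with a peak in every library (chr4:135102938-135103237, plus strand), and its first 6 bases are an ETS match.
Runx3 region 1 core: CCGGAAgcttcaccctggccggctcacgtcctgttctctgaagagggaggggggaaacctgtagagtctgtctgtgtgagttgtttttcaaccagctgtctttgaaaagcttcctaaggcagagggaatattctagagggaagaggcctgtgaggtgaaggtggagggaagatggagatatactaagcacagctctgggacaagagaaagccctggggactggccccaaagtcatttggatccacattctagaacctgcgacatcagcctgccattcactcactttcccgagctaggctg
Cbfb, on chromosome 8 from 105170674 to 105217989 (plus strand), had 2 and 1 peaks in WT and 0, 1 and 1 in TPdh-/- libraries. They covered 1.62 and 1.17 kb in WT and 0, 0.581 and 0.708 kb in TPdh-/- libraries, so that covered length did not overlap between the groups. The promoter peak (chr8:105170268-105171605) was missing in TPdh-/- replicate 1 alone. Its fold was 3.09 and 2.36 in WT and 3.27 and 3.59 in TPdh-/- replicates 2 and 3, and its percentile 80.3 and 8.43 in WT against 79.8 and 94.5. By fold and percentile the promoter peak of Cbfb was thus highest in TPdh-/- replicate 3, while the widest were those of the WT libraries, 890 and 1171 bp against 581 and 708 bp.

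The ETS genes Ets1 and Fli1 are neighbours on chromosome 9, Ets1 from 32636221 to 32757820 (plus strand) and Fli1 from 32422204 to 32542861 (minus strand). Both encode activators of lymphoid and blood cell genes. Ets1 had 3 and 1 peaks in WT and 1, 0 and 2 in TPdh-/- libraries, covering 4.59 and 1.98 kb in WT and 0.576, 0 and 2.97 kb in TPdh-/- libraries. Its promoter had a peak in WT replicate 1 only (chr9:32696263-32697128), at a fold of 1.69 and the 39.7 percentile. The Ets1 region seen most often, in 4 libraries, lay inside the annotated gene but at −34.4 kb from the start of its protein-coding transcripts, that is upstream of it (chr9:32660513-32662686). There its fold was 1.88 and 2.05 in WT and 2.21 and 1.94 in TPdh-/- replicates 1 and 3.

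Fli1, in contrast, had a promoter peak in all 5 libraries (chr9:32540078-32541960). Its fold was 2.13 and 2.29 in WT and 2.40, 2.02 and 2.13 in TPdh-/- libraries. Its percentile was 90.3 and 89.8 in WT and 82.4, 42.5 and 71.5 in TPdh-/- libraries. Its fold overlapped between the groups, and so did its rank, 1549 and 903 in WT against 867, 3118 and 2683. The locus had 4 and 1 peaks in WT and 2, 2 and 2 in TPdh-/- libraries. It covered 7.15 kb in WT replicate 1 and 1.14 kb in WT replicate 2, the highest and the lowest value of the 5, against 1.95, 2.56 and 3.77 kb in TPdh-/- libraries. Without WT replicate 1 the difference in covered length turned to −1.62 kb (WT minus TPdh-/-).

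Elf1, on chromosome 14 from 79481194 to 79582494 (plus strand), encodes an ETS factor of lymphocytes. It had 6 and 1 peaks in WT and 1, 2 and 4 in TPdh-/- libraries. Covered length was 12.3 kb in WT replicate 1, 0.918 kb in WT replicate 2 and 0.856, 1.25 and 4.63 kb in TPdh-/- libraries. WT replicate 1 alone set the higher WT mean, and without it the difference was −1.33 kb. The peak of WT replicate 1 just downstream of the second promoter spanned 6430 bp, the widest of all peaks at the loci (chr14:79515839-79522268), at a fold of 1.78. TPdh-/- replicate 3 had 2 peaks in the same stretch. Both Elf1 promoters had a peak in WT replicate 1 and TPdh-/- replicate 3 only. The region beside Elf1 with a peak in all 5 libraries belonged to the promoter of Sugt1 (chr14:79586717-79587805), with a fold of 2.47 and 2.83 in WT and 2.89, 2.75 and 3.13 in TPdh-/- libraries. Its middle is shown because it holds 3 ETS matches, at bases 103, 138 and 213 (chr14:79587126-79587425, plus strand).
Elf1 region 5 core: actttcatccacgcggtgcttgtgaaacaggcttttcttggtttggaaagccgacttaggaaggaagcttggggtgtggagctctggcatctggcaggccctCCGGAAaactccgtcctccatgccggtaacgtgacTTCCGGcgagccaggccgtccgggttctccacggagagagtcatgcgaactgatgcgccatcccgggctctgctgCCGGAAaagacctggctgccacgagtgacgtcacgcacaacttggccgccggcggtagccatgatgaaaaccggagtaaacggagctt
Among the 3085 such windows of regions with a peak in all 5 libraries genome-wide, 21.4% held an ETS match, 18.8% a RUNX match and 22.0% an Ikaros match. Of the 7 windows at members of the promoter table, 2 held an ETS match, 0 a RUNX match and 2 an Ikaros match.

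Gabpa, on chromosome 16 from 84834925 to 84863779 (plus strand), encodes the DNA-binding subunit of GA-binding protein. Its promoter peak (chr16:84834239-84835685), which is shared with the divergent gene Atp5j, was among the strongest of every list. The fold was 3.46 and 3.73 in WT and 3.52, 3.53 and 3.08 in TPdh-/- libraries. The rank was 670 and 359 in WT and 516, 258 and 1215 in TPdh-/- libraries, or percentiles of 95.8, 96.0, 89.5, 95.3 and 87.1. Folds and ranks overlapped between the groups. The Gabpa locus had 2 and 2 peaks in WT and 1, 1 and 2 in TPdh-/- libraries, and the second peak, in an intron 16.0 kb from the start (chr16:84850242-84851932), was in both WT libraries and TPdh-/- replicate 3. Covered length was 2.91 and 1.88 kb in WT and 1.07, 0.774 and 2.00 kb in TPdh-/- libraries.

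Ikzf1, which encodes Ikaros, lies on chromosome 11 from 11685003 to 11772926 (plus strand) and had the longest covered length of the members on average in both groups. It had 7 and 5 peaks in WT and 4, 2 and 5 in TPdh-/- libraries. They covered 11.6 and 7.45 kb in WT and 3.49, 2.17 and 6.47 kb in TPdh-/- libraries, so that every WT value exceeded every TPdh-/- value. The widest region with a peak in every library lay in an intron 39.6 kb downstream of the start (chr11:11724786-11727395). The peak was 2610 and 2295 bp wide in WT, as against 1210, 1600 and 2129 bp in TPdh-/- libraries, while its fold was nearly level, 1.93 and 1.92 against 1.98, 1.91 and 1.99. Its percentile was 83.2 and 67.0 in WT and 29.7, 42.2 and 72.3 in TPdh-/- libraries, with overlap. The middle of this intronic region is shown as the widest stretch of the loci that all 5 libraries share (chr11:11726088-11726387, plus strand), with 1 Ikaros match on the minus strand at base 166.
Ikzf1 region 6 core: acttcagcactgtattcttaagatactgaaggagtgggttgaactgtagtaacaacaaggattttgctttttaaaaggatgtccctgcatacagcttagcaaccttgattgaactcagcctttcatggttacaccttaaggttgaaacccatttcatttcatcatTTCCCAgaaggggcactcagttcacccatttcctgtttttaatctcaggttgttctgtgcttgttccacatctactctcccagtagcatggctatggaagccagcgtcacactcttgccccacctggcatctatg
A region 55.3 kb downstream of the start (chr11:11740917-11742538), over an annotated exon, was also shared by all 5, at folds of 2.196 and 2.165 in WT and 2.48, 2.34 and 2.26 in TPdh-/- libraries. The promoter region (chr11:11686353-11689727) had a low, broad peak in both WT libraries and TPdh-/- replicate 1. Its width there was 3375, 1762 and 624 bp and its fold 1.48, 1.50 and 1.66. Upstream, a region at −27.8 kb from the start had a peak in both WT libraries and TPdh-/- replicate 3, and one at −16.7 kb in every library but TPdh-/- replicate 2. The sole region found in TPdh-/- libraries alone, at −5.8 kb from the Ikzf1 start (chr11:11678922-11679525), came from TPdh-/- replicate 3 at the 42.2 percentile.

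Ikzf3, which encodes Aiolos, lies on chromosome 11 from 98464902 to 98546031 (minus strand). It had 6 and 5 peaks in WT and 2, 3 and 4 in TPdh-/- libraries, without overlap. No other member was without overlap in peak number, and the share of all genes with this pattern is not given here. Covered length was 6.32 and 4.95 kb in WT and 1.26, 2.67 and 3.17 kb in TPdh-/- libraries, again without overlap. None of the peaks lay at its own promoter. The strongest region in most libraries lay upstream at −4.9 kb, within 3000 bp of the start of Zpbp2 (chr11:98549857-98551478). Its percentile was level across all 5 libraries, at 87.2 and 82.5 in WT and 86.5, 85.5 and 87.8 in TPdh-/- libraries. An intron region 52.5 kb into the gene (chr11:98492245-98494391) was also shared by all 5, where WT peaks spanned 1167 and 1552 bp and TPdh-/- peaks 526, 561 and 564 bp. A further intron region (chr11:98486558-98487484) had a peak in both WT libraries only, at percentiles of 9.999 and 13.51.

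**Figure D4:**
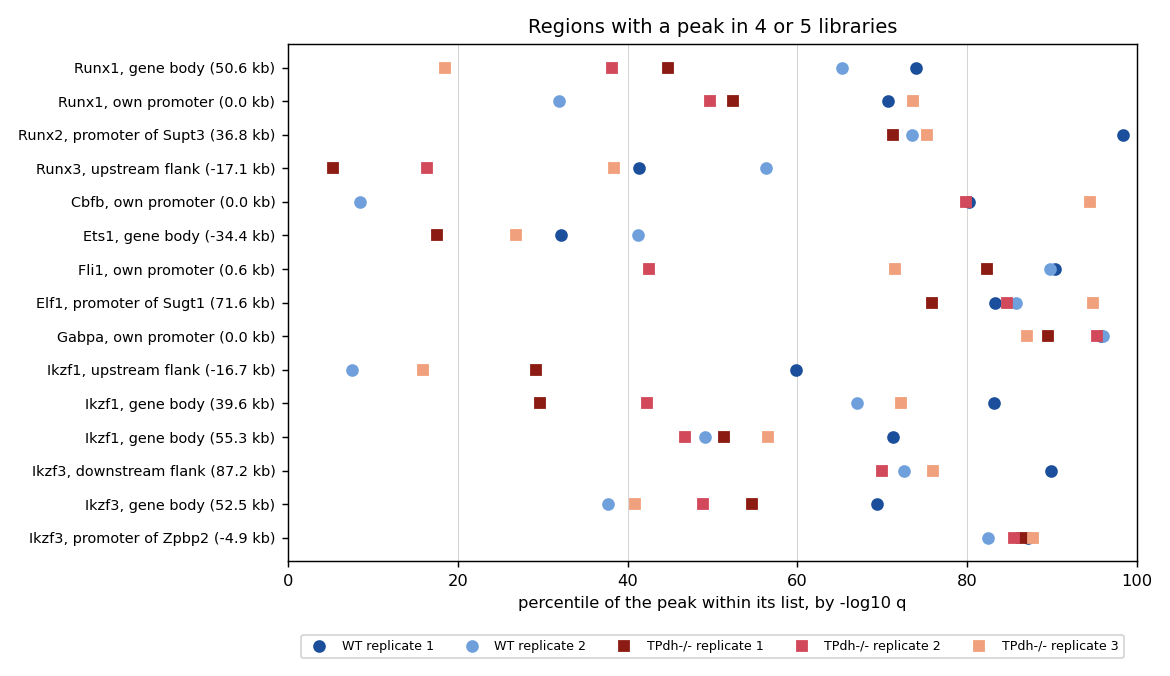
Points give the percentile of a peak within its list by −log10 q for the regions with a peak in 4 or 5 libraries, circles for WT and squares for TPdh-/-. Distances in parentheses are from the nearest own start site, negative upstream. Points at the Zpbp2 promoter beside Ikzf3 lie between 82.5 and 87.8, while those at the Cbfb promoter spread from 8.43 to 94.5.

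Covered length per gene was compared between the groups in a test over all genes. It was higher in both WT than in all TPdh-/- libraries for 5 of 10 members (Runx1, Runx3, Cbfb, Ikzf1 and Ikzf3), against 28.1% of the 14532 genes with a peak in any library, and lower for 0 of 10, against 0.0688%. Most genes are shorter than the members, and these shares were not computed for genes in the members' range of lengths. The group means of those 5 were 4.50 ± 1.51 and 2.62 ± 0.457 kb for Runx1, 3.92 ± 2.36 and 1.26 ± 0.584 kb for Runx3, 1.40 ± 0.318 and 0.430 ± 0.377 kb for Cbfb, 9.53 ± 2.94 and 4.04 ± 2.21 kb for Ikzf1, and 5.64 ± 0.972 and 2.37 ± 0.991 kb for Ikzf3 (SD, n = 2 WT and n = 3 TPdh-/-). For each of them the exact permutation test gave p = 0.2 (two-sided), the smallest p that 10 divisions of 5 libraries allow, and 0.711 after Benjamini-Hochberg adjustment over all genes. Runx2, Ets1 and Gabpa gave p = 0.4 (adjusted 0.718), Elf1 0.6 and Fli1 0.8 (both adjusted 0.860) in the same exact test. No gene of the genome could pass 0.05 in this design, and 0 genes had an unadjusted p below it. With lists of equal length, 1 of the 10 members was without overlap in the WT direction.

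**Figure D5:**
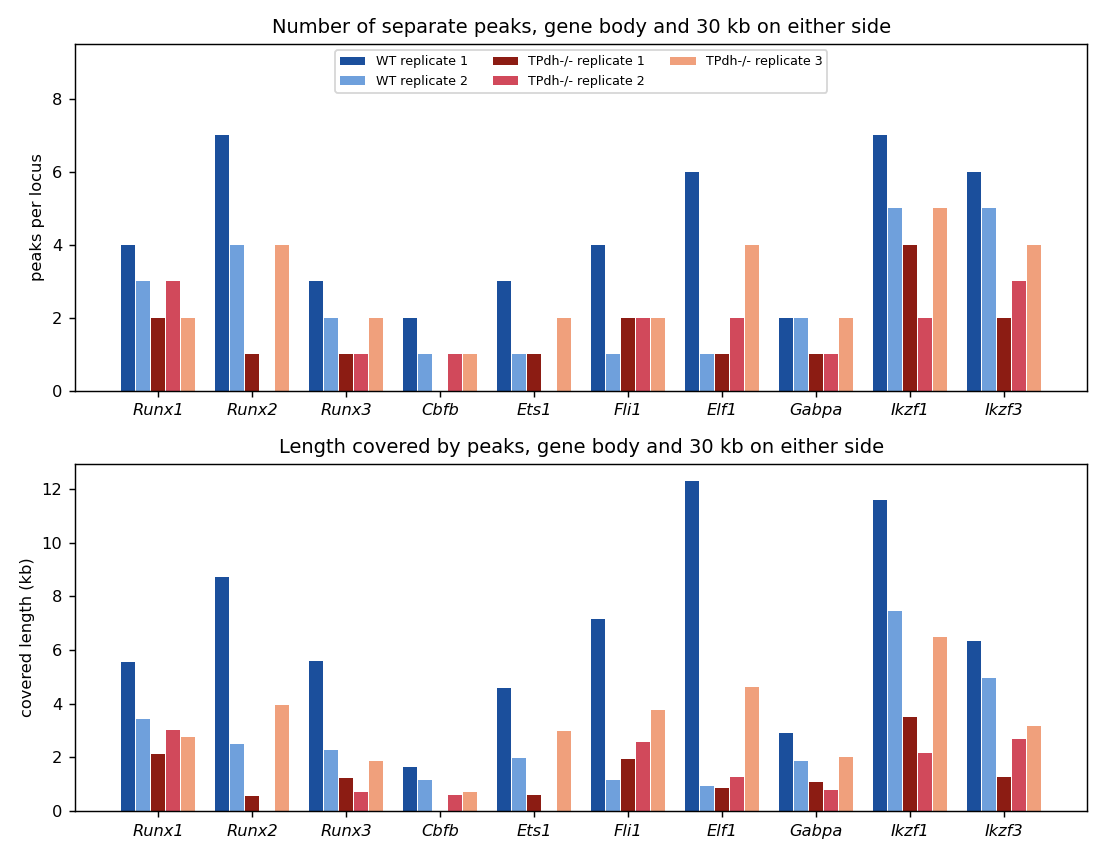
Bars give the number of separate peaks (top) and the length they cover in kb (bottom) at each locus, one bar per library. The Ikzf1 bars reach 11.6 kb in WT replicate 1, and Runx2, Cbfb and Ets1 each have a library without any peak.

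The peaks of all libraries at the 10 loci formed 46 separate regions, of 18410 in the genome. A peak in all 5 libraries was present in 10 of them (21.7%, against 16.8% of all regions). Those 10 are the distal promoter and body regions of Runx1, the upstream region of Runx3, the promoters of Fli1 and Gabpa, the Sugt1 promoter beside Elf1, both intragenic regions of Ikzf1 named above, and the intron and Zpbp2 regions of Ikzf3. Only 3 regions had a peak in both WT libraries and in no TPdh-/- library (6.52%, against 5.92%): the proximal promoter of Runx1 and an intron region each of Runx2 and Ikzf3. A peak in a single library was found for 13 regions (28.3%, against 43.4%), and 12 of these came from WT replicate 1, the longest list. By place, 3 of 10 own-promoter regions, 4 of 21 gene-body regions and 2 of 6 regions at promoters of other genes had a peak in all 5 libraries.

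Other members of the same families and their partners were described by a list of 37 genes. Of 22 other ETS genes, 9 and 9 had a promoter peak in WT and 5, 5 and 9 in TPdh-/- libraries, with 4 in all 5 libraries and 13 in none. Of those 4, the ETS repressor gene Elk3 had the highest mean percentile, 91.5, with percentiles of 95.9 and 97.7 in WT and 79.9, 87.9 and 95.9 in TPdh-/- libraries. Of the 3 other Ikaros genes, 3 and 2 had one in WT and 0, 1 and 2 in TPdh-/- libraries. Among them Ikzf2, which encodes Helios, had a promoter peak in both WT libraries and in no TPdh-/- library, but near the bottom of the lists at percentiles of 6.54 and 1.40.

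Of 12 partner genes, 10 and 6 had a promoter peak in WT and 5, 5 and 7 in TPdh-/- libraries, with 5 in all 5 libraries. The shares of all genes were 40.9% and 23.7% in WT, 14.7%, 15.9% and 26.8% in TPdh-/- libraries, and 10.4% in all 5. Gabpb2 and Gabpb1 encode the partner subunits of Gabpa in GA-binding protein. The Gabpb2 promoter was at percentiles of 98.3 and 99.4 in WT and 96.9, 99.3 and 98.0 in TPdh-/- libraries, and that of Gabpb1 at 95.1 and 90.1 against 94.4, 86.9 and 94.5. The genes of all 3 subunits of GA-binding protein thus had a promoter peak in every library. Mta2, a subunit of the NuRD complex to which Ikaros binds, was at 97.6 and 98.4 in WT and 76.2, 96.4 and 93.5 in TPdh-/- libraries. Tle4, a corepressor that binds RUNX proteins, was at 72.3 and 43.5 in WT and 79.5, 93.8 and 89.9 in TPdh-/- libraries, and its percentile was higher in each TPdh-/- than in each WT library. The fold at Tle4 was 2.49 and 2.44 in WT and 2.83, 3.15 and 2.98 in TPdh-/- libraries, likewise without overlap. The median fold of the whole lists was 2.40 and 2.54 in WT and 2.65, 2.58 and 2.48 in TPdh-/- libraries. How many promoters of all genes separate the groups in this way was not counted, and a difference at Tle4 was not tested.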

How the data were processed

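Peak lists of 5 ChIPseq libraries of TM cells were analysed, 2 WT and 3 TPdh-/-, grouped by their labels. The authors aligned reads to GRCm38/mm10 with BWA 0.7.17, kept uniquely mapping reads outside blacklisted regions with SAMtools 1.15.1, and called broad peaks with MACS2 2.2.6 for each library. No input control is named in the sources used here. The deposited lists give a fold, a linear ratio over the background that MACS2 estimated, and the authors' −log10 p and −log10 q. A deposited display score was not used. With no read numbers in the lists, the depth of each library is unknown, and counting error could not be given. DiffBind 3.2, named per the labels, needs reads and was not run.

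Peaks were assigned with Python 3.11.15, numpy 2.4.6 and pandas 2.3.3 to loci of the GENCODE M21 annotation of GRCm38 by an overlap of at least 1 bp. The place of a peak was, in this order of priority, own promoter, promoter of another protein-coding gene, gene body, upstream flank or downstream flank. Peaks of different libraries sharing at least 1 bp were merged into regions. Groups were compared per gene by an exact two-sided permutation test of covered length over the 10 divisions of 5 libraries, with Benjamini-Hochberg adjustment over all genes with a peak; scripts were tested on simulated data. Sums over members carry no p. All 10 members are named. Of the list of family genes and partners, those with a promoter peak in both WT libraries and no TPdh-/- library and the 5 with the highest mean percentile are named. Not every marker gene examined is reported here. Members and lists were chosen with earlier results of these data known. Promoter sequences and coordinates are those of RefSeq (GRCm38.p6). Alternatives were 2 stricter limits on −log10 q (2 and 5), equal list lengths, other flanks, peak midpoints, joined peaks, a stricter overlap, a narrower promoter, the replicate block, and leaving out each library.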

Additional observations from a re-analysis of the deposited data

How the results depend on the processing

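The higher WT peak number at the 10 loci did not remain when the lists were made equally long, and the difference in covered length became smaller. The SD between libraries in log2 peak number was 0.54 in the full lists. With lists of equal length the log2 difference in peak number turned to −0.11, that in covered length fell to 0.26, and the difference in members with an own-promoter peak turned from 1.83 to −1. Regions shared by all 5 libraries were then 6, regions of both WT libraries alone 0, and members without overlap in covered length 1. With a −log10 q of at least 5 these 3 counts were 1, 0 and 1. The difference in share of the list, −0.0141 percentage points, was 0.0131 with a −log10 q of at least 2, −0.0543 with at least 5, −0.000324 for gene bodies alone and 0.0323 for flanks of 100 kb. The difference in median percentile, −1.50, was −10.4 and 34.2 at the −log10 q of at least 2 and 5, 3.40 without peaks at promoters of other genes, 2.40 without TPdh-/- replicate 1 and 0.115 without TPdh-/- replicate 2. For single genes the difference in covered length turned negative with equal lists for Ets1 (−0.192 kb), Fli1 (−0.569 kb), Elf1 (−0.076 kb) and Gabpa (−0.0352 kb), for Gabpa also at a −log10 q of at least 5 (−0.0352 kb), and without WT replicate 1 for Fli1 (−1.62 kb, up to 4.39 kb without WT replicate 2) and Elf1 (−1.33 kb, up to 10.1 kb without WT replicate 2). Fewer peaks enter the stricter and equal lists, and the cause of the other changes was not tested.

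With 1 library left out at a time, 3 to 15 regions had a peak in every remaining WT library and in no remaining TPdh-/- library. There were 15 when WT replicate 2 was left out, with WT replicate 1 as the only WT library, and 8 when TPdh-/- replicate 3 was. Members without overlap in covered length were 5 to 10, with 10 and 8 in the same cases. The replicate block compared replicates 1 and 2 only. In it 8 members had a higher covered length in WT than in TPdh-/- at both replicate numbers, which is a weaker demand than no overlap. Nothing shows that equal numbers pair the libraries: replicate 1 minus replicate 2 in log2 peak number was 0.82 in WT and 0 in TPdh-/- libraries. Of the other values, 143 for single genes did not turn to the opposite sign, though not all kept their size. With equal lists Runx2 fell from 4.09 to 0.412 kb and Runx3 from 2.66 to 0.0957 kb. The difference was 0 for Runx3 and Ets1 at a −log10 q of at least 5, and for Runx3 in the gene body alone. For the loci together, 95 values moved by less than the SD between libraries or, for counts, within 1.5 times. No group comparison could pass 0.05 under any of the alternatives, and with depth unknown an absent peak does not show that acetylation was absent.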

Other observations

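Peaks beyond the 30 kb flanks were counted as values only. Within 100 kb on either side of the 10 genes there were 62 and 31 peaks in WT and 16, 17 and 35 in TPdh-/- libraries, against 44, 25, 15, 15 and 28 within 30 kb. Within the gene bodies alone there were 32 and 17 in WT and 10, 10 and 19 in TPdh-/- libraries. The GC content of the 300-base promoter windows ranged widely among the RUNX genes. It was 45.0% at the distal promoter of Runx1, 45.3% at that of Runx2 and 63.7% at that of Runx3. At the proximal promoters it was 69.0% for Runx1 and 77.3% for Runx3. The distal promoter of Runx2 and both promoters of Runx3 had no peak in any library. A relation of GC content to peaks was not tested.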
